A study of Macaca fascicularis with 36 samples.

Results

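In cynomolgus monkey (Macaca fascicularis) frontal cortex, 38 of 28623 measured genes were patchy: their level differed by several fold between samples of the same animal. Members were chosen by their measured values in the libraries lettered A and C of 10 animals. A gene was called apart in an animal when the higher of the A and C libraries held at least 5 CPM (a gene's count per 1000000 counts summed over its library) and the ratio of the higher to the lower, with 0.1 CPM added to each, was at least 4. Genes with an exonic width over 200 bases, of which there were 22806, were kept when they were apart in 3 or more animals. A gene was left out when its highest lower-of-A-and-C value over animals was at least 5 CPM and at least 20 times its lowest higher-of-A-and-C value, the pattern of a gene that is present in some animals and nearly missing in others. That step removed 1 gene.

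The study compared bulk RNA-seq of 36 libraries from 12 monkeys, each sampled under the letters A, B and C, 2 days after intrathecal injection, which is injection into the fluid around the spinal cord. The 4 control animals (1501 to 1504) were given 200 mg/kg of anti-gD, the isotype control. Para09, an antibody that activates human TREM2, was given at 50 mg/kg to 4 animals (4501 to 4504) and at 200 mg/kg to 4 others (5501 to 5504). The labels name no genetic alteration, age or sex, do not say what the letters stand for, and give these doses without stating how a dose per body weight applies to the intrathecal route. Libraries carried identifiers of 2 number series, which the labels do not explain. The first series held 16 libraries, all 12 lettered B and the A and C libraries of animals 1504 and 5501. The second held the 20 libraries lettered A and C of the other 10 animals, which are the ones the rule used.

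TREM2 is a lipid-sensing receptor that microglia, the brain's own macrophages, carry on their surface, and it signals through the adaptor TYROBP. The frontal cortex is layered grey matter of neurons and glia, permeated by vessels, lying over white matter and under the meninges, so a bulk sample reads a mixture of cell types. In such bulk samples, fewer cells of a type and less RNA per cell cannot be told apart. The files name genes by Ensembl identifier alone, and the reference table used here matched 0 of the 28623 identifiers, so the 38 members are given by identifier without a function, and neither the tissue nor its cell types could be checked against marker genes.

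Summed counts ranged from 15067000 to 36969714 per library, and between 15779 and 19677 genes had a count. Library B of animal 5501 had the fewest. The 38 members together took 0.0291% to 0.355% of a library's counts, so they moved little of the library total against which each CPM was scaled. Of the members, 1 had no count in 1 library, another had none in 2 libraries, and the remaining 36 had counts in all 36 libraries. The part of depth in these missing counts was not tested.

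Of the 38 members, 18 were apart in 3 of the 10 animals, 14 in 4 and 6 in 5; no gene was apart in more than 5. A further 51 genes were apart in 2 animals and 224 in 1. Close to the threshold, ENSMFAG00000039158 was inside with a third-largest ratio of 4.02, and ENSMFAG00000002684 was outside at 3.996. Member widths ran from 684 to 9711 bases with a median of 3212.5, against a median of 3135 for the 11831 other genes that averaged 5 CPM or more. Their mean level over the 20 libraries ran from 3.08 to 406 CPM with a median of 13.5.

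Patchiness was concentrated in a few animals. Animals 4501 and 5502 each had 32 of the 38 members apart, and animal 4504 had 27. These 3 animals supplied 65.0% of the 140 cases in which a member was apart in an animal. Animals 1502, 4503, 4502, 5504 and 5503 had 14, 12, 10, 8 and 5 members apart, and animals 1501 and 1503 had 0. Over the same animals, 0% to 1.23% of other genes that reached 5 CPM were apart, with the highest share in animal 4503. These counts come from the values that chose the members and are given as a description.

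Grouped by their correlation over the 20 libraries (Pearson's r of log2(CPM + 0.5), average linkage, joined at r of 0.5 or more), the members fell into a set of 26 genes, a set of 8 genes and 4 genes in neither. The 20 libraries come from 10 animals, so they are not 20 independent points. Within the 26-gene set the median r between members was 0.91 and the lowest 0.66. Within the 8-gene set the median was 0.95 and the lowest 0.91. Between the sets the median was -0.29, so a library high in one set was not usually high in the other. Over all pairs of the 11831 other genes the median r was 0.0129, and 12.1% of pairs reached 0.5. The members were chosen for large differences among these same libraries. The sets were then formed on r over them, so high r within a set is built in. These correlations are therefore a description. The same holds for the difference between libraries A and C in the 10 animals, the quantity the rule selected on, for which the medians were 0.94 within the 26 genes, 0.96 within the 8 and -0.25 between them.

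The 16 libraries that the rule did not use gave the same division. Clustering the 38 members on those libraries alone returned a set of 26 and a set of 8, with all 26 and all 8 genes shared. There the median r was 0.89 within the 26 genes, 0.92 within the 8 and -0.16 between them, against 0.0064 over all pairs of other genes, of which 16.99% reached 0.5. With the 12 letter B libraries alone, 1 for each animal, the medians were 0.86, 0.93 and -0.13. These libraries come from the same 12 animals, and the first series also differs from the second in its identifiers.

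**Figure D1:**
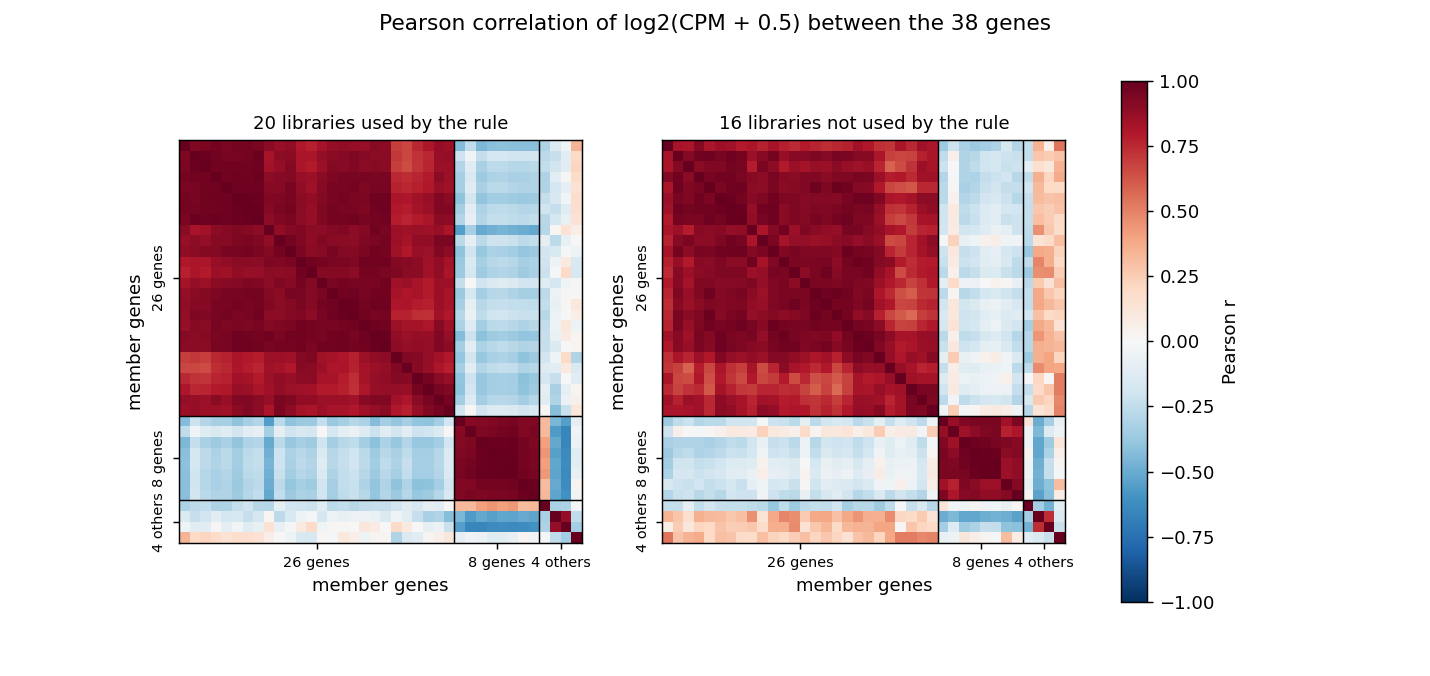
Pearson's r of log2(CPM + 0.5) between each pair of the 38 genes, in the 20 libraries used by the rule (left) and the 16 not used (right), in the same gene order; colour runs from -1 (blue) to 1 (red) and black lines divide the 26-gene set, the 8-gene set and the 4 other genes. Both panels show 2 red blocks on the diagonal, with median r of 0.91 and 0.95 on the left and 0.89 and 0.92 on the right.

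The highest of the 26 genes by mean CPM was ENSMFAG00000043293, which was apart in 5 animals and had the highest median level per length of the set, 32.1 RPKM (reads per kilobase of width, scaled to library size) over 36 libraries, where the set's lowest was 0.393 RPKM. In animal 1502 it stood at 411 CPM in A, 2005 in B and 2484 in C. In animal 4501 it stood at 71.8 CPM in A, 124 in B and 1051 in C. In animal 4504 the order was turned, with 1248 CPM in A, 252 in B and 71.6 in C. In animal 1501 the 3 libraries were close together, at 246, 187 and 167 CPM. Thus the letter holding the high library differed between animals, and the A and C libraries of animal 4504 were the highest and lowest of the 12 libraries at 50 mg/kg.

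ENSMFAG00000046226, the second of the set by mean CPM over the 20 libraries, followed the same course at a lower level. It measured 9.80 CPM in A, 10.1 in B and 44.4 in C of animal 4501, and 68.3, 47.8 and 12.9 CPM in A, B and C of animal 4504. In animal 5502 it stood at 14.1 CPM in A, 38.4 in B and 76.5 in C. Over the 20 libraries its lowest value was 9.49 CPM, its median 28.7 and its highest 76.5, and over the 16 others these were 10.1, 40.1 and 82.6. Every member of the 26-gene set tracked the mean of the other 25, with r from 0.85 to 0.99 in the 20 libraries and from 0.80 to 0.99 in the 16. The set was formed on correlation over the 20 libraries, so the first range is only a description.

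The mean log2(CPM + 0.5) of the 26 genes was lower in A than in C in 8 of the 10 animals and higher in A in animals 1501 and 4504. The difference, A minus C, was -2.97 in animal 4501, -2.30 in 5502 and 2.42 in 4504, and lay between -1.54 and 0.25 in the other 7. The summed CPM of the set differed by 1.29-fold to 12.2-fold between the highest and lowest of an animal's 3 libraries, with a median of 2.95-fold over 12 animals. Across all 36 libraries the sum differed by 24.3-fold. ENSMFAG00000043293 carried much of the sum, 2445 of 3305 CPM in library A of animal 5501. Without it the sum of the other 25 genes differed by 1.20-fold to 8.87-fold within an animal, with a median of 3.14-fold, and by 17.97-fold across the 36 libraries; animal 5501 came to 5.84-fold in place of 12.2-fold and animal 1502 to 2.47-fold in place of 4.58-fold. By mean log2(CPM + 0.5), library B, which the rule did not use, lay between A and C in 6 of the 10 animals for this set. For the 8-gene set it did so in 4.

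The 8-gene set had its own course, led by ENSMFAG00000000951, which was apart in 5 animals. In animal 4503 it stood at 270 CPM in A, 1.26 in B and 1.497 in C. In animal 4502 it stood at 13.6 CPM in A, 1.07 in B and 0.675 in C, the lowest value among the 36 libraries. In animal 5502 it stood at 32.2 CPM in A, 75.8 in B and 2.38 in C, so that C alone was low. Animal 5501 was even, at 74.6, 79.6 and 71.6 CPM, although the 26-gene set was uneven there.

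ENSMFAG00000045512, the second of the 8-gene set by mean CPM, measured 223 CPM in A, 6.17 in B and 4.49 in C of animal 4503. In animal 5502 it measured 25.0 CPM in A, 32.9 in B and 3.20 in C. Over the 20 libraries its lowest value was 3.20 CPM, its median 25.7 and its highest 223, and over the 16 others 6.17, 34.0 and 127. Median levels per length in this set ran from 0.647 to 5.56 RPKM over 36 libraries. All 33 cases of a member of the 8-gene set being apart were higher in A, whereas 69 of the 94 cases in the 26-gene set were higher in C. The 25 cases of the larger set higher in A were all in animal 4504. Members of a set varied together and were chosen on these values, so the cases are not independent and only describe. In animal 1504, outside the rule, 7 of the 8 genes were apart and higher in C.

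For the 8-gene set, A minus C in mean log2(CPM + 0.5) was 6.09 in animal 4503, 3.22 in 5502, 2.69 in 4502, 2.04 in 1502 and 1.96 in 4501, and was positive in 7 of 10 animals. The summed CPM of the set was 993 in library A of animal 4503 and 11.97 in its library C. Between the highest and lowest library of an animal the sum differed by 1.02-fold to 82.9-fold, with a median of 3.79-fold, and across the 36 libraries by 99.0-fold. By summed CPM, library B was the highest of the 3 in 8 of 12 animals for this set and in 3 of 12 for the 26-gene set. In 2 of those 8 animals B led library A by little, at 69.6 against 68.5 CPM in 1502 and 231.5 against 228.0 in 5501. By mean log2(CPM + 0.5), B was below A in both. Animals 4503 and 5501 show the sets apart from one another: the first had 8 of 8 members of the smaller set and 0 of 26 of the larger apart, and the second is described with the unused libraries.

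**Figure D2:**
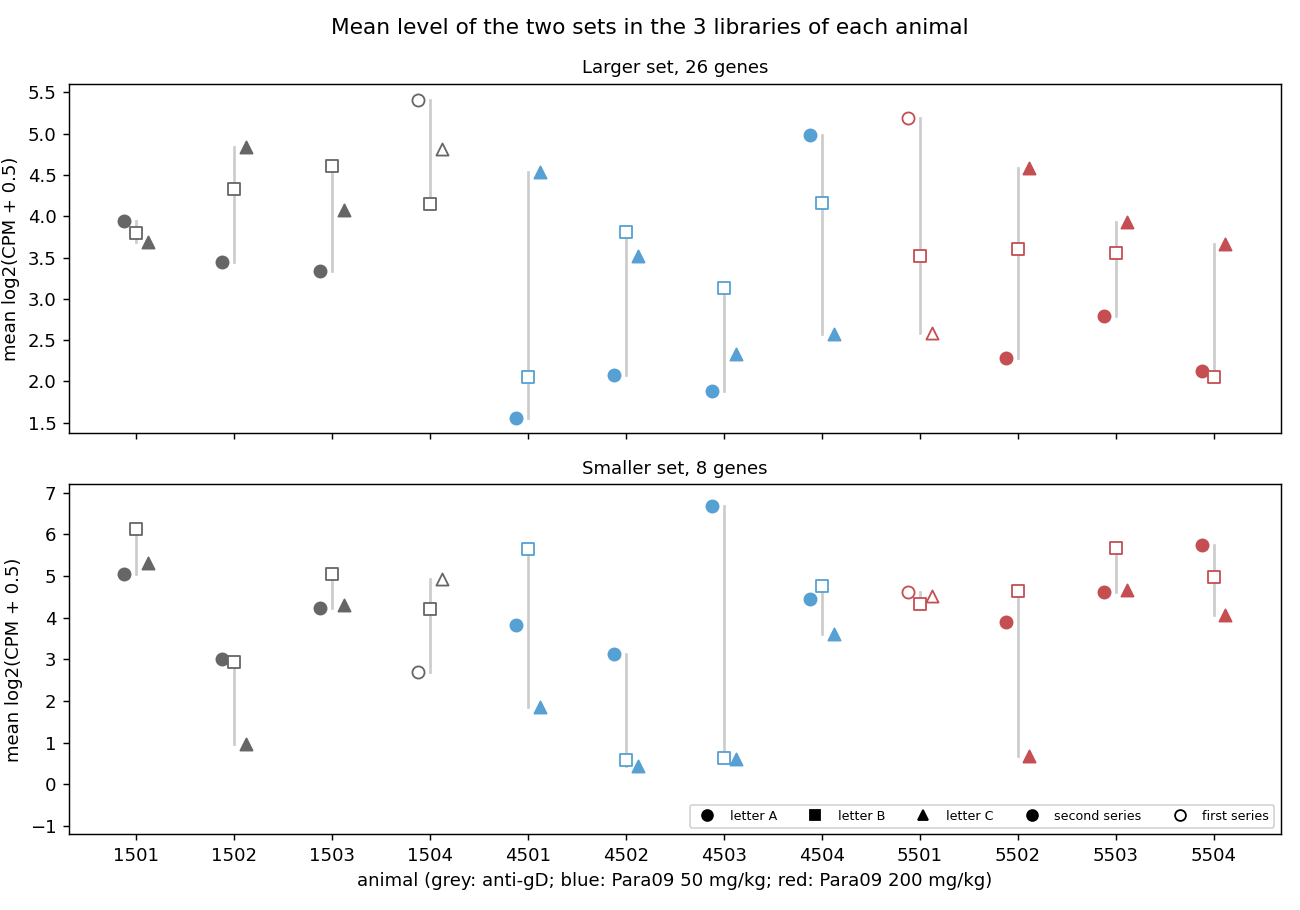
Mean log2(CPM + 0.5) of the 26-gene set (top) and the 8-gene set (bottom) in the libraries A (circle), B (square) and C (triangle) of each animal; filled symbols are the second identifier series, open symbols the first, and a grey line joins an animal's lowest and highest library. Animals 4501, 4504, 5501 and 5502 span over 2 log2 units in the 26-gene set, and animal 4503 spans 6.09 in the 8-gene set.

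The 4 members in neither set were ENSMFAG00000045017, ENSMFAG00000039111, ENSMFAG00000011075 and ENSMFAG00000042884; the last 2 are named because the group is small, after their values were seen. ENSMFAG00000045017 and ENSMFAG00000011075 moved together, with r of 0.88 over the 20 libraries and 0.74 over the 16, and both ran against the 8-gene set, with r of -0.64 and -0.53 over the 20 and -0.30 and -0.51 over the 16. The first had its highest values in library A of animal 1504 (37.4 CPM), library C of 4503 (34.3) and library C of 4504 (32.7), around a median of 11.02 over the 20 libraries. The second was weak, with a median of 2.94 CPM over the 20 libraries and a highest value of 8.67 in library C of 4504.

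ENSMFAG00000039111 was high in single libraries. It measured 102 CPM in library C of animal 5504, where A and B held 3.66 and 8.73. It measured 26.3 CPM in library A of 4503 and 22.5 in library A of 4501, and no more than 17.4 in the other 33. ENSMFAG00000042884 was apart in 3 animals, at 12.9 CPM in A and 2.97 in C of 1502, 4.26 and 18.6 in 4503, and 0.883 and 5.04 in 5503. It also differed by identifier series. Its median was 0.200 CPM and its highest 1.02 in the 16 libraries of the first. In the 20 of the second its median was 4.26 CPM, with a range of 0.883 to 19.95. For the others, medians in the first and second series were 1.26 and 2.94 CPM (ENSMFAG00000011075), 4.27 and 1.87 (ENSMFAG00000039111) and 11.3 and 11.02 (ENSMFAG00000045017). The part of the identifier series in these differences was not tested.

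**Figure D3:**
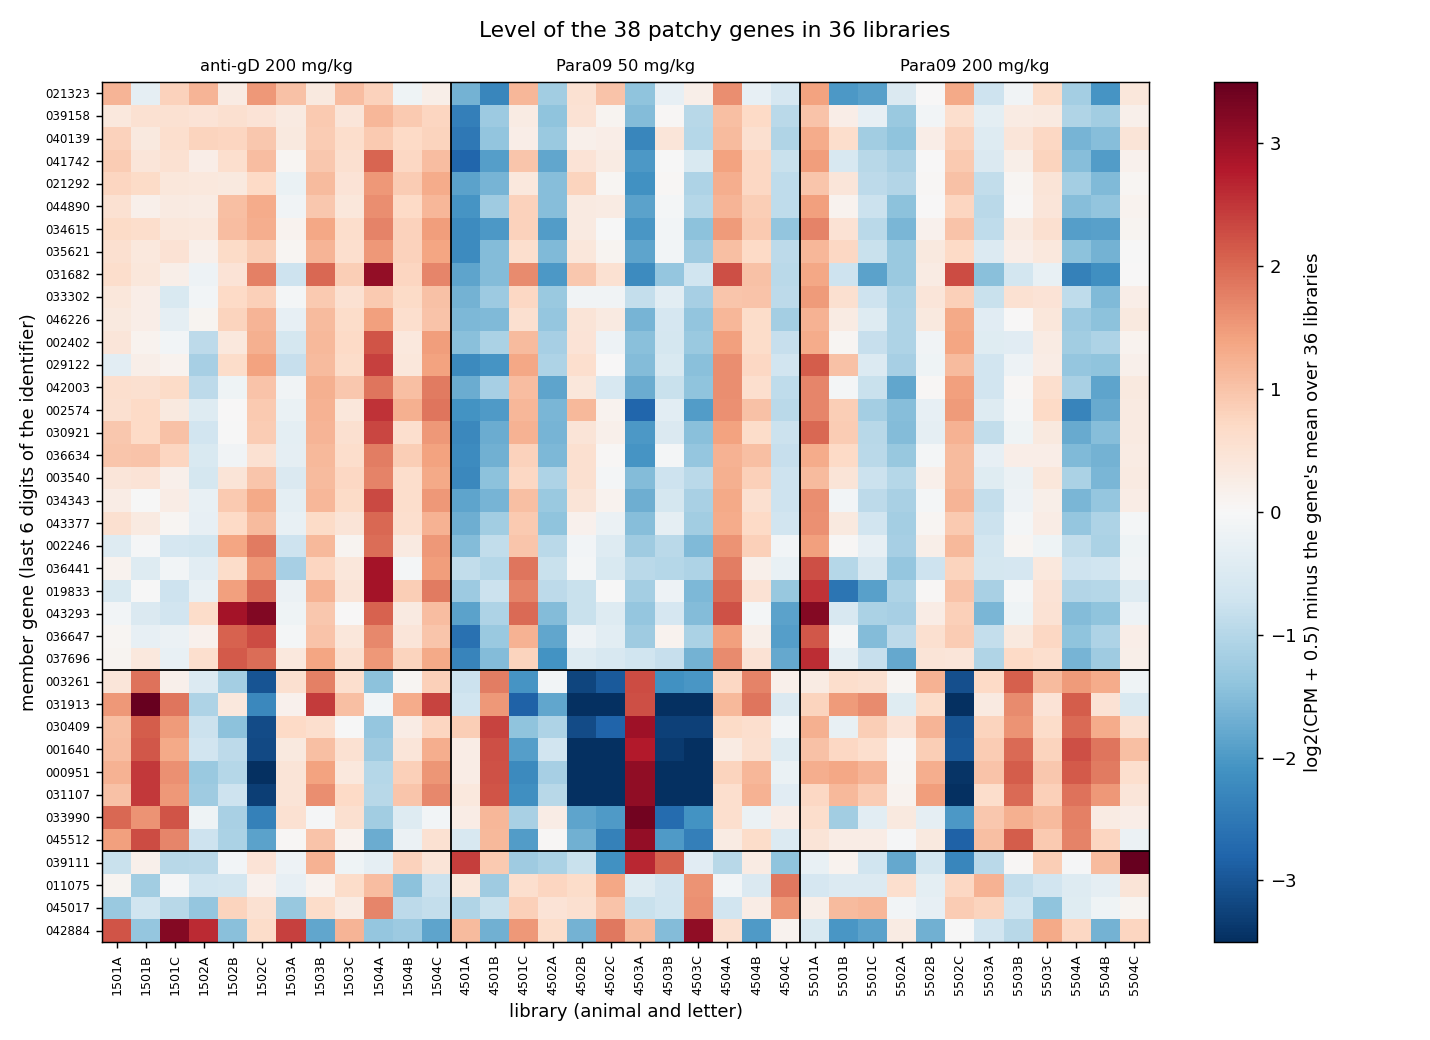
Level of the 38 genes (rows) in 36 libraries (columns, by animal and letter), as log2(CPM + 0.5) minus the gene's mean over the libraries; red is above and blue below the mean, colours are limited at 3.5 log2 units, and lines divide the 2 sets, the 4 other genes and the treatment groups. Within the larger set, columns switch from blue to red inside animals such as 4501, 4504 and 5502, and the smaller set does so in other columns, such as library A of 4503.

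Animals 1504 and 5501 had A and C libraries that took no part in choosing the members. In animal 1504, 8 of the 36 members that reached 5 CPM were apart between A and C, against 0.357% of all genes that did so. Of these 8, 7 belonged to the 8-gene set and were higher in C, and the last was ENSMFAG00000045017. None of the 26-gene set was apart there, with a median ratio of 1.47. In animal 5501, 21 of the 35 members that reached 5 CPM were apart, against 1.06% of all genes. All 21 belonged to the 26-gene set, whose 26 genes were all higher in A with a median ratio of 6.03, and 0 of the 8-gene set were apart. The median ratio over other genes was 1.16 in animal 1504 and 1.27 in animal 5501.

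In these 2 animals too, a gene named above shows the size of the difference. ENSMFAG00000043293 stood at 2445 CPM in A, 180 in B and 123 in C of animal 5501, and at 1097, 329 and 557 CPM in A, B and C of animal 1504. ENSMFAG00000000951 stood at 15.2 CPM in A, 55.2 in B and 91.0 in C of animal 1504. With library B in place of C, 5 members were apart from A in animal 1504 and 8 in animal 5501. With B against C, 0 and 1 were apart. In animal 5501 the median ratio of the 26 genes was 2.41 between A and B and 2.22 between B and C, so B lay between the other libraries. In animal 1504 the 5 genes apart between A and B held 4 of the 26-gene set and 0 of the 8-gene set, whereas the 8 apart between A and C held 0 and 7. In animal 5501, library B is the library with the fewest detected genes, and 3.64% of other genes were apart between A and B.

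Some genes outside the 38 also ran with the sets, although most did not. Of 14481 other genes that averaged 1 CPM or more, 387 had r of at least 0.8 with the mean of the 26-gene set over the 20 libraries and 241 over the 16; 213 passed in both, which is 55.0% of the first list and 88.4% of the second. For the 8-gene set the numbers were 107 and 92, with 63 in both, 58.9% and 68.5% of the lists. Over all 14481 genes the median r with the 26-gene mean was -0.05 over the 20 libraries and -0.02 over the 16. With the 8-gene mean it was 0.03 and 0.08. Such counts were not made for the means of other genes. The median slope of the genes that passed in both on the set's mean was 0.52 for the larger set and 0.44 for the smaller. The members' own medians, 0.98 and 1.01, lie near 1 by construction, because the mean is made of those members. The members were also chosen for large differences among the 20 libraries, so the smaller slopes of other genes are a description. Against the 26-gene set, 1 gene had r of -0.8 or lower over the 20 libraries and 1 over the 16, with none in both; against the 8-gene set these numbers were 3, 0 and 0.

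Library properties were set beside the sets' mean levels. Over the 20 libraries the 26-gene mean had r of 0.12 with summed counts, 0.14 with the number of detected genes and -0.71 with the counted share, which is the summed gene counts as a percentage of the library total that the deposited RPKM values imply. Over the 16 libraries these were 0.10, 0.10 and -0.12. For the 8-gene mean they were 0.26, -0.06 and 0.40 over the 20, and 0.33, 0.11 and -0.11 over the 16. The part of the counted share in the level of the 26-gene set was not tested.

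The treatment comparisons asked whether the members differed between Para09 and the control antibody, with the 3 libraries of an animal summed and 4 animals a group. The rule compared libraries within animals and did not use the group labels. Most cases of a member being apart were in Para09 animals, but most of the animals the rule used were also Para09 animals. The rule used 3 control animals, 4 at 50 mg/kg and 3 at 200 mg/kg. Of the cases, 65.0% came from 3 of the Para09 animals. The cases come from the values that chose the members, so their division by treatment is only a description. Of the control animals the rule used, 1501 and 1503 had 0 members apart and 1502 had 14. The A and C libraries are part of the summed counts, so the tests are not independent of how the members were chosen. No member passed an adjusted p of 0.05 in edgeR's quasi-likelihood test in any of the 3 comparisons, as was true of all 17360 genes tested, where 0% passed in each. The estimates of the 26-gene set lay below 0 at both doses, with 26 of 26 fold changes negative at each. Both doses were compared with the same 4 control animals, so they do not repeat one another.

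At Para09 200 mg/kg against anti-gD, the 26 log2 fold changes ran from -1.17 to -0.36 with a median of -0.75, beside a median of 0.0016 over all genes tested. At an unadjusted p under 0.05, 4 of the 38 members were lower, all from this set, against 1.6% of all genes, and 0 were higher. The 4 animals of each group did not overlap, with the treated lower, for 4 members, against 0.95% of all genes. At 50 mg/kg the 26 log2 fold changes ran from -1.30 to -0.52 with a median of -0.86. There 13 members were lower at an unadjusted p under 0.05, all from this set, against 3.64% of all genes, and 1 was higher, against 2.1%. For 1 member the groups did not overlap with the treated lower, against 1.91% of all genes. Members of a set varied together, so these counts are not counts of independent genes.

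The direction of the 26 genes held when any 1 animal was left out, with 26 of 26 negative at both doses each time, and the numbers at an unadjusted p under 0.05 did not. At 200 mg/kg the 4 lower genes of the set became 0 without animal 5504, 1 without 1504 or 5503 and 2 without 1502, and became 9 without 1501 or 4503, 12 without 4504 and 13 without 5501. At 50 mg/kg the 13 became 2 without 4501 or 4503, 3 without 4502 and 5 without 1504, and 24 without 4504. Over these fits the share of all genes lower at this threshold ran from 1.17% to 3.93% at 200 mg/kg and from 1.81% to 5.99% at 50 mg/kg. Leaving out library B of animal 5501 alone gave 2 at 200 mg/kg, against 1.66% of all genes, and 13 at 50 mg/kg, against 4.07%.

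DESeq2, run on the same animal sums, called 0 members in each comparison, where it called 0.066%, 0.0465% and 0% of the genes it adjusted for 200 mg/kg against anti-gD, 50 mg/kg against anti-gD and 200 against 50 mg/kg. At an unadjusted p under 0.05 it gave 9 lower and 0 higher members for the larger dose, against 1.69% of all genes lower. For the smaller dose it gave 17 lower and 1 higher, against 3.12% lower and 2.1% higher.

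The mean log2(CPM + 0.5) of the 26 genes, averaged over an animal's 3 libraries, was 4.20 ± 0.43 (SD, n = 4) in the control animals, 3.05 ± 0.64 (SD, n = 4) at 50 mg/kg and 3.32 ± 0.49 (SD, n = 4) at 200 mg/kg. The controls ran from 3.80 to 4.79, the 50 mg/kg animals from 2.45 to 3.91 and the 200 mg/kg animals from 2.61 to 3.76. The groups thus met at 50 mg/kg and fell just short of meeting at 200 mg/kg. The span between the 3 libraries of a single animal ran from 0.25 in animal 1501 to 2.97 in animal 4501. That span is a range of single libraries, so it is not the same measure as a difference between group means. The counted share was 57.7% ± 1.86, 59.2% ± 0.45 and 58.4% ± 0.91 (SD, n = 4) in the same order, and its part in the difference was not tested.

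Letter B libraries alone, 1 for each animal and outside the rule, gave 26 of 26 negative fold changes at both doses. Their medians were -0.93 at 200 mg/kg and -0.66 at 50 mg/kg, with 10 and 3 members lower at an unadjusted p under 0.05, against 1.36% and 0.69% of all genes in that fit, and 0 called. The 26-gene mean in these libraries was 4.22 ± 0.34 (SD, n = 4) in controls, 3.29 ± 0.92 at the smaller dose and 3.18 ± 0.75 at the larger. The second identifier series alone gave 26 of 26 negative at 200 mg/kg and 25 of 26 at 50 mg/kg, with medians of -0.58 and -0.56, and 1 and 3 of the 26 lower at an unadjusted p under 0.05. In that fit 7.48% and 5.44% of all genes were lower at this threshold, so the count at 200 mg/kg was no higher than the background. The libraries come from the same animals, so these are not further replicates.

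**Figure D4:**
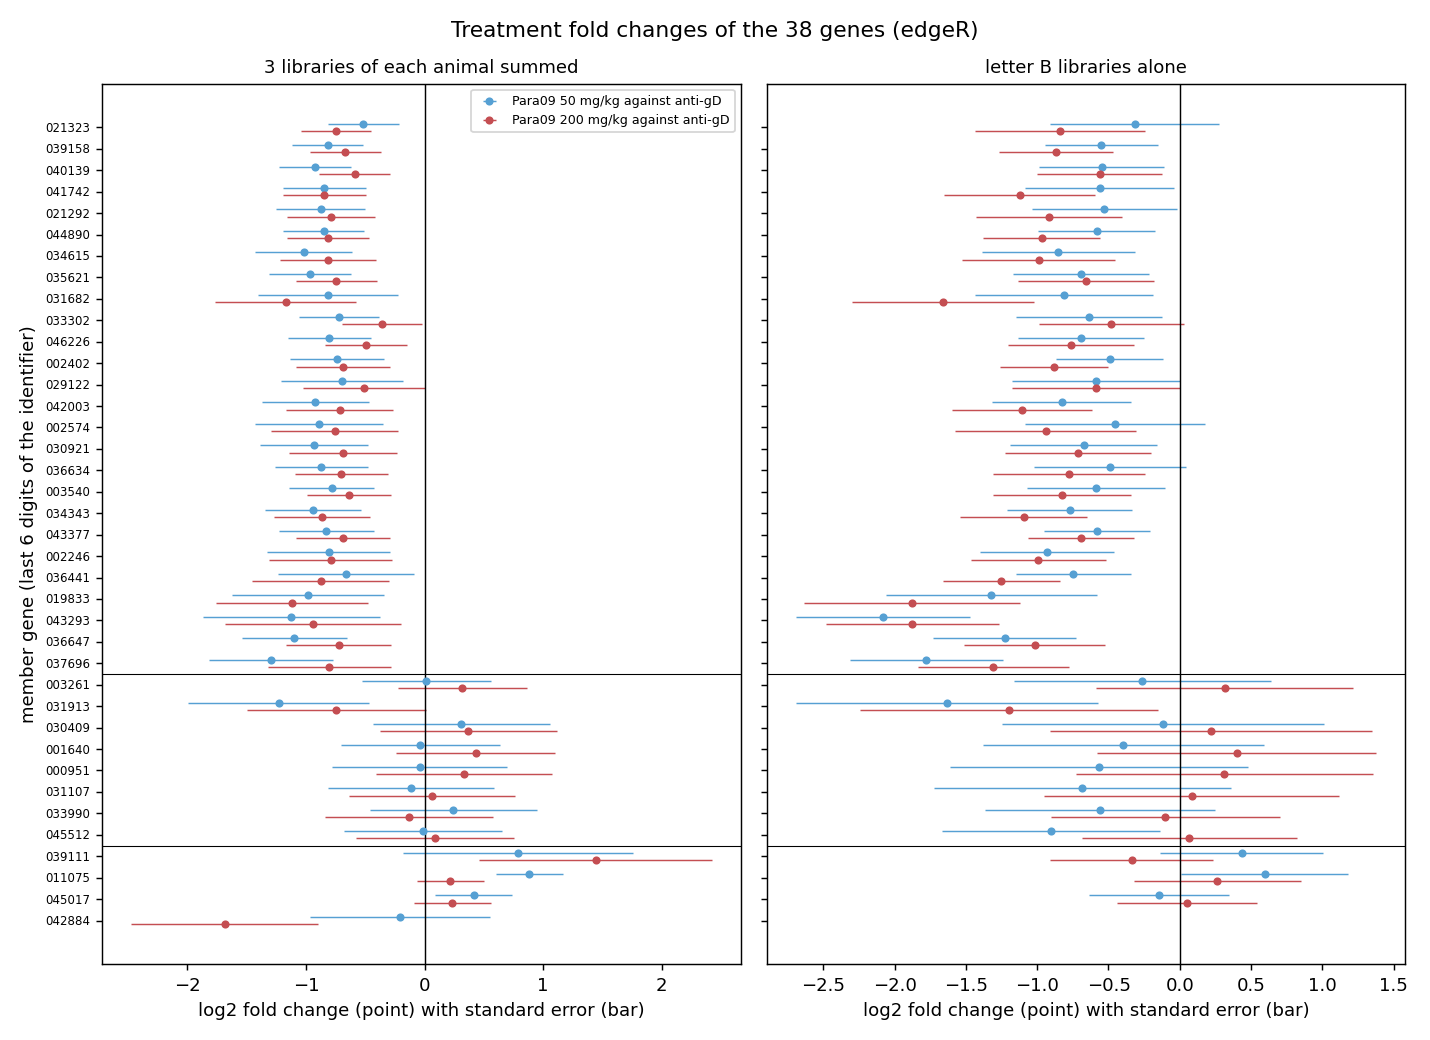
Log2 fold change (point) and standard error (bar) of each of the 38 genes from edgeR, for Para09 50 mg/kg (blue) and 200 mg/kg (red) against anti-gD, with the 3 libraries of each animal summed (left) and with letter B alone (right); 1 gene was not tested with letter B. The 26 upper genes lie left of 0 in both panels, and the 8 below them lie on both sides with wider bars.

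Single members of the 26-gene set show the spread behind these estimates. ENSMFAG00000043293 measured 201, 1707, 345 and 656 CPM in the summed libraries of control animals 1501 to 1504, 429, 143, 115 and 655 CPM in animals 4501 to 4504, and 860, 301, 228 and 141 CPM in animals 5501 to 5504. The groups overlapped, and animal 1502 stood above all others. Its log2 fold change was -0.94 ± 0.74 (SE) at 200 mg/kg and -1.12 ± 0.74 (SE) at 50 mg/kg, with edgeR adjusted p of 1.00 and 0.888. Without animal 1502 these became -0.07 and -0.23.

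ENSMFAG00000040139, the lower member of smallest p at 50 mg/kg, was tighter. It measured 17.5, 21.0, 18.1 and 20.3 CPM in the 4 controls, 6.53, 10.01, 6.47 and 17.2 CPM at 50 mg/kg and 16.9, 12.5, 14.1 and 7.63 CPM at 200 mg/kg. No treated animal reached the lowest control at either dose. The log2 fold changes were -0.92 ± 0.30 (SE) at the smaller dose and -0.59 ± 0.30 (SE) at the larger. An exact two-sided permutation test gave p = 0.0286 at each dose, the smallest that 4 against 4 animals allow, and 0.386 after adjustment over 27 such tests. The gene was picked by its p, so this test only describes its separation.

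ENSMFAG00000021323 had the smallest p of the lower members at 200 mg/kg. It measured 16.03, 21.9, 17.6 and 12.4 CPM in the controls and 9.74, 14.5, 9.92 and 6.40 CPM at 200 mg/kg, where the groups overlapped, and its log2 fold change was -0.75 ± 0.30 (SE) with an edgeR adjusted p of 1.00. ENSMFAG00000046226 measured 33.1, 52.8, 46.1 and 62.5 CPM in the controls, 22.0, 29.6, 12.7 and 46.4 CPM at 50 mg/kg and 42.6, 43.5, 31.1 and 20.5 CPM at 200 mg/kg. Its groups overlapped at both doses.

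The 8-gene set showed no common direction. Against anti-gD, 6 of its 8 fold changes were positive at 200 mg/kg with a median of 0.20, and 3 of 8 at 50 mg/kg with a median of -0.02. With letter B alone these were 6 and 0 of 8, with medians of 0.15 and -0.56. None of the 8 reached an unadjusted p of 0.05 at either dose with animal sums or letter B. ENSMFAG00000000951 measured 114, 9.10, 56.5 and 51.2 CPM in the controls, 61.5, 5.496, 106 and 48.5 CPM at 50 mg/kg and 75.5, 32.1, 83.0 and 99.6 CPM at 200 mg/kg. Each group held a low animal, 1502, 4502 and 5502, and the groups overlapped throughout. ENSMFAG00000045512 likewise overlapped, at 94.4, 10.9, 36.3 and 21.5 CPM in the controls, 26.2, 13.5, 89.97 and 29.7 CPM at 50 mg/kg and 32.4, 18.9, 69.7 and 52.5 CPM at 200 mg/kg.

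Among the 4 other members, ENSMFAG00000011075 was the 1 higher member at 50 mg/kg. It measured 1.60, 1.61, 2.39 and 2.15 CPM in the controls and 2.33, 4.43, 3.48 and 3.87 CPM at 50 mg/kg, with a log2 fold change of 0.88 ± 0.28 (SE), an edgeR unadjusted p of 0.0087 and an adjusted p of 0.857. The groups overlapped by 1 animal on each side. With letter B alone its log2 fold change was 0.59, and 0 members were higher at an edgeR unadjusted p under 0.05, against 84 of 15508 genes. Its median was 1.26 CPM in the first identifier series and 2.94 CPM in the second. All A and C libraries at 50 mg/kg are of the second series, whereas those of animals 1504 and 5501 are of the first. The part of the series in the estimate at 50 mg/kg was not tested. ENSMFAG00000039111 had the highest estimate at 200 mg/kg, 1.44 ± 0.98 (SE), which rested on animal 5504 at 38.2 CPM while the other 3 animals of that dose measured 3.19, 0.983 and 4.23 CPM. Without that animal the log2 fold change was -0.63. ENSMFAG00000042884 had the lowest estimate of the 38 at 200 mg/kg, -1.68 ± 0.79 (SE), with an edgeR adjusted p of 1.00. Animals 1504 and 5501, which have libraries of the first identifier series alone, measured 0.316 and 0.361 CPM for it, against 1.499 to 9.76 CPM in the other 10. In the second identifier series alone its log2 fold change at 200 mg/kg was -1.94, with edgeR p of 0.0019 unadjusted and 0.229 adjusted. In that fit 7.48% of all genes were lower at an unadjusted p under 0.05. The estimate was -2.08 without animal 1504 and -1.35 without animal 5501. The part of the identifier series in this estimate was not tested.

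Between the doses, 200 against 50 mg/kg, the 26 genes had 22 positive and 4 negative fold changes with a median of 0.15, and the 8 genes 7 positive and 1 negative with a median of 0.24. At an unadjusted p under 0.05, 1 of the 38 members was lower, ENSMFAG00000011075, against 0.962% of all genes, and 0 were higher. The level of that gene also differed between the identifier series, whose part here was not tested. DESeq2 gave the same counts for the members, against 1.14% of all genes lower. The direction of the larger set turned in letter B libraries, with 5 positive and 21 negative and a median of -0.26. It also turned without animal 4503 or without 5501, with 6 positive and 20 negative and a median of -0.10 each time, and was divided 12 to 14 in the second identifier series alone. The smaller set turned without animal 4502, with 2 positive and 6 negative.

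The unevenness within animals was also set beside treatment. The absolute A minus C difference of the 26-gene mean was 0.80 ± 0.57 (SD, n = 3) in controls, 1.82 ± 1.11 (SD, n = 4) at 50 mg/kg and 1.66 ± 0.59 (SD, n = 3) at 200 mg/kg, over the animals the rule used. For the 8-gene mean it was 0.80 ± 1.08, 2.90 ± 2.26 and 1.65 ± 1.58 in the same order. These differences are the quantity the members were selected on, so they are given without a test.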

How the data were processed

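RNA was extracted from frontal cortex with a lipid-tissue column kit and DNase digestion, per the labels' protocols, and reads were aligned with GSNAP, per the submitters' processing notes (version, genome build, strand setting and counting rule: not given in the sources used). The deposited files hold, per the file headers, a read count, a width and an RPKM value for each gene. Counts were used for every test and for CPM; the RPKM values, as the authors deposited them, were used only to compare levels between genes. For tests, each animal's 3 libraries were added together, and edgeR 4.0.16 was applied (TMM, filterByExpr, quasi-likelihood, Benjamini-Hochberg over all 17360 genes), with DESeq2 1.42.0 as an alternative, in R 4.3.3; scripts were tested on simulated data. The members, sets and lists were chosen with earlier results of these data known. Members were named by being apart in most animals, by highest mean CPM in each set, or by smallest p in each direction. Nothing states that the libraries of an animal are separate tissue pieces. Marker lists were not applied, because no identifier matched a symbol.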

Additional observations from a re-analysis of the deposited data

How the results depend on the processing

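Over 18 results, 305 alternatives were computed. The number of called members was 0 in all 57 alternatives run, and the sets of 26 and 8 genes were returned with the same members under other pseudocounts, Spearman's correlation, complete linkage, A minus C differences, and without each animal in turn; the runs on the 16 unused libraries, on 15 of them without library B of 5501 and on letter B alone were added after seeing the data. The number of members was 89 when 2 animals sufficed and 20 when 4 were required, and ranged from 24 to 39 without each animal in turn, with 24 without 4501, 24 without 4504 and 25 without 5502. In animal 1504, 5 members were apart between A and B and 0 between B and C, and in animal 5501, 8 and 1. The fold change of ENSMFAG00000039111 at 200 mg/kg against anti-gD turned to -0.34 with letter B alone and to -0.63 without animal 5504 (range -0.63 to 1.83 without each animal in turn), and that of ENSMFAG00000040139 between the doses turned to -0.015 with letter B alone; the cause was not tested. No paired analysis was possible because the labels give no replicate numbers and nothing in them ties the animals of one group to those of another, although animal numbers share their last digit. With no low-count filter, 7 and 15 of the 26 genes were lower at an unadjusted p under 0.05 at 200 and 50 mg/kg, in place of 4 and 13, with 1.71% and 2.79% of all genes lower. What size of treatment difference these 4 animals a group could show in the members was not tested.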
